A study of Mus musculus with 5 samples.

Results

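The 9 genes described here encode chemokine receptors that steer white blood cells: Ccr2, Ccr6, Ccr7, Ccr8, Ccr9, Cxcr4, Cxcr5, Cx3cr1 and Xcr1. They were chosen by name, and all 9 were found among the 27998 genes of a single-cell RNA table of mouse immune cells. Live CD45+ cells (CD45 marks all white blood cells) had been sorted from 9 samples, namely a tumour, a tumour-draining lymph node (dLN) and a non-draining lymph node (non-dLN) of each of 3 mice. Treatment was nivolumab_mIgG1_D265A in 1 mouse, nivolumab_mIgG1 in another, and MOPC21, the isotype control, in the remaining mouse. Nivolumab is an antibody to the checkpoint receptor PD-1. The labels used here state no strain, age, sex or tumour type. The 9 samples carried hashtag antibodies and were sequenced as 1 pool, and neither the labels nor the table ties a hashtag to a mouse and site. They are therefore called populations 1 to 9, and neither sites nor antibodies were compared. With 1 pool and no labelled groups there was no test, and all intervals below are 95% intervals that cover counting error only.

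Chemokine receptors are membrane-spanning surface proteins that couple to inhibitory G proteins and turn a cell toward the source of a secreted chemokine. Ccr7 reads Ccl19 and Ccl21 and brings naive lymphocytes and mature dendritic cells into the lymph node, and Cxcr5 reads Cxcl13 and draws cells into the B cell follicle. Ccr2 brings monocytes out of bone marrow and into inflamed tissue, and the others serve more restricted traffic.

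The table held 21531 cells after filtering, with 128285378 unique molecular identifiers (UMIs, 1 per captured RNA molecule). Totals per population ran between 9202501 and 31330079 UMIs, and median depth per cell between 3377 and 10660 UMIs. Each cell was placed in 1 of 22 classes by counts of marker genes that include none of the 9 receptors, and 18021 cells (83.7%) received a class. A class name below stands for that gate alone. Each gate was set beside its defining markers. Cd3e read 792 to 1524 UMIs per 1000000 (CPM) in the T cell classes and 19.1 CPM in B cells. Cd79a read 3847 CPM in B cells, Ncr1 463 CPM in NK cells and C1qa 5253 CPM in macrophages. The macrophage gene C1qa read between 24.2 and 60.3 CPM in the naive, activated and regulatory T cell, NK and B cell classes. Levels are given in CPM, the receptor's UMIs per 1000000 UMIs of all genes in the cells of a class.

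The receptor genes lie on 4 chromosomes (mm10, GRCm38), 6 of them on chromosome 9. In the GENCODE vM21 annotation of that assembly, which may not be the one the authors counted with, Ccr8 spans chr9:120092114-120094906 and begins 22235 bases beyond the end of Cx3cr1 (chr9:119901616-120069879). Xcr1 spans chr9:123852315-123862029, 67985 bases beyond Ccr9 (chr9:123678439-123784330), and Ccr2 spans chr9:124101950-124113557. The other 4 genes are Cxcr5 on chr9:44511787-44561877, Ccr6 on chr17:8236043-8257141, Ccr7 on chr11:99144196-99155077 and Cxcr4 on chr1:128588199-128592293. Of all 50-base runs in the Ccr9 transcripts, 220 of 10306 (2.13%) also occur in the noncoding gene Gm17200, and Ccr6, Ccr7, Ccr8, Cxcr4 and Cxcr5 shared no run with any other gene. On the opposite strand Cxcr5 shares 110 exon bases with Bcl9l and Ccr9 shares 1932 with AC165425.1, and the sources used do not state whether counting was by strand.

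RefSeq start sites (GRCm38.p6) were at hand for 7 of the 9 genes. The 250 bases before the start, in the direction of the gene, are shown for Ccr2, Ccr6 and Ccr8, whose RNA was higher in regulatory than in naive CD4 T cells, and for Xcr1, whose RNA came mostly from macrophages. Capitals mark matches, on either strand, to the core GAGGAAG of the myeloid and B cell factor PU.1 (reverse CTTCCTC) and to the E-box CACGTG, which reads alike on both strands.
Ccr2 promoter, chr9:124101933-124102182 (+ strand): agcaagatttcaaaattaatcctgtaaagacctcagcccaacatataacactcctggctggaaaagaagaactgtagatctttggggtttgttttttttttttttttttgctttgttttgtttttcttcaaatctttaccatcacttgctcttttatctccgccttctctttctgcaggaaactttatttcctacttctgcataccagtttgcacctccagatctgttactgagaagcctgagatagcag
Ccr6 promoter, chr17:8235793-8236042 (+ strand): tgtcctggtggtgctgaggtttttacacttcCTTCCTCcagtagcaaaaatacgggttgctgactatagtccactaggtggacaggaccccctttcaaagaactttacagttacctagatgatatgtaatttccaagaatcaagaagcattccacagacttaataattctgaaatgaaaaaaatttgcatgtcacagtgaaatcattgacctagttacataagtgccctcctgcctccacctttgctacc
Ccr8 promoter, chr9:120091883-120092132 (+ strand): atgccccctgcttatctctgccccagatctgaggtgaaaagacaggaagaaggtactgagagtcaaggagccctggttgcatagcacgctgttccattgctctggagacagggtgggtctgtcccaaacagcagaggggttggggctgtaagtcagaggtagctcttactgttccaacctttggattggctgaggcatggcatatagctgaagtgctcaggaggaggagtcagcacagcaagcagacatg
Xcr1 promoter, chr9:123862030-123862279 (- strand): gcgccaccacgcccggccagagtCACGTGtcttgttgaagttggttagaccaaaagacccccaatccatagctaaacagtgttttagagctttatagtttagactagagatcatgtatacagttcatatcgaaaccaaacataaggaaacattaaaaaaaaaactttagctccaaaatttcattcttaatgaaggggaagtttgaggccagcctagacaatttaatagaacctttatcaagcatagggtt
The Ccr6 window, the first of 2 RefSeq entries for that gene, holds 1 PU.1 core, as do 10.6% of the 32851 mouse promoters searched, and the window of the second entry (chr17:8242276-8242525) holds none. The Xcr1 window holds 1 E-box, found in 6.02% of promoters, and the Ccr2 and Ccr8 windows hold neither. The RefSeq windows of Ccr2 and Ccr8 end at bases 124102182 and 120092132, beyond the GENCODE vM21 starts of these genes (124101950 and 120092114). Parts of both windows thus lie inside the gene as GENCODE draws it. These letters are a description of the sequence and do not mark a bound site.

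Among the 17 classes of at least 20 cells, the 9 receptors peaked in 6 different classes. Ccr7 was highest in migratory dendritic cells (DCs, 4187 CPM), Ccr9 in plasmacytoid DCs (630.3 CPM) and Ccr2 in classical monocytes (461 CPM). Ccr8 was highest in regulatory T cells (301 CPM), and Cx3cr1 and Xcr1 in macrophages (262 and 11.0 CPM). For Cx3cr1 macrophages could not be told apart from the next class, the type 2 conventional DCs (cDC2s, 214 CPM), nor for Ccr2 monocytes from the cells between monocytes and macrophages (419 CPM). Ccr6, Cxcr4 and Cxcr5 were all highest in B cells, at 141, 123 and 146 CPM. Some classes under 20 cells read higher. Cxcr4 was 242 CPM in 15 neutrophils and 191 CPM in 5 plasma cells, from 12 UMIs each. Cx3cr1 was 304 CPM in 19 nonclassical monocytes (25 UMIs) and 323 CPM in 13 mast cells or basophils (13 UMIs). Xcr1 was 252 CPM in 16 type 1 conventional DCs (57 UMIs), against 11.0 CPM in macrophages. By share of molecules 84.5% of all Ccr6 UMIs came from B cells and 84.6% of all Xcr1 UMIs from macrophages, which hold 16.05% and 35.4% of the UMIs of all genes.

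**Figure D1:**
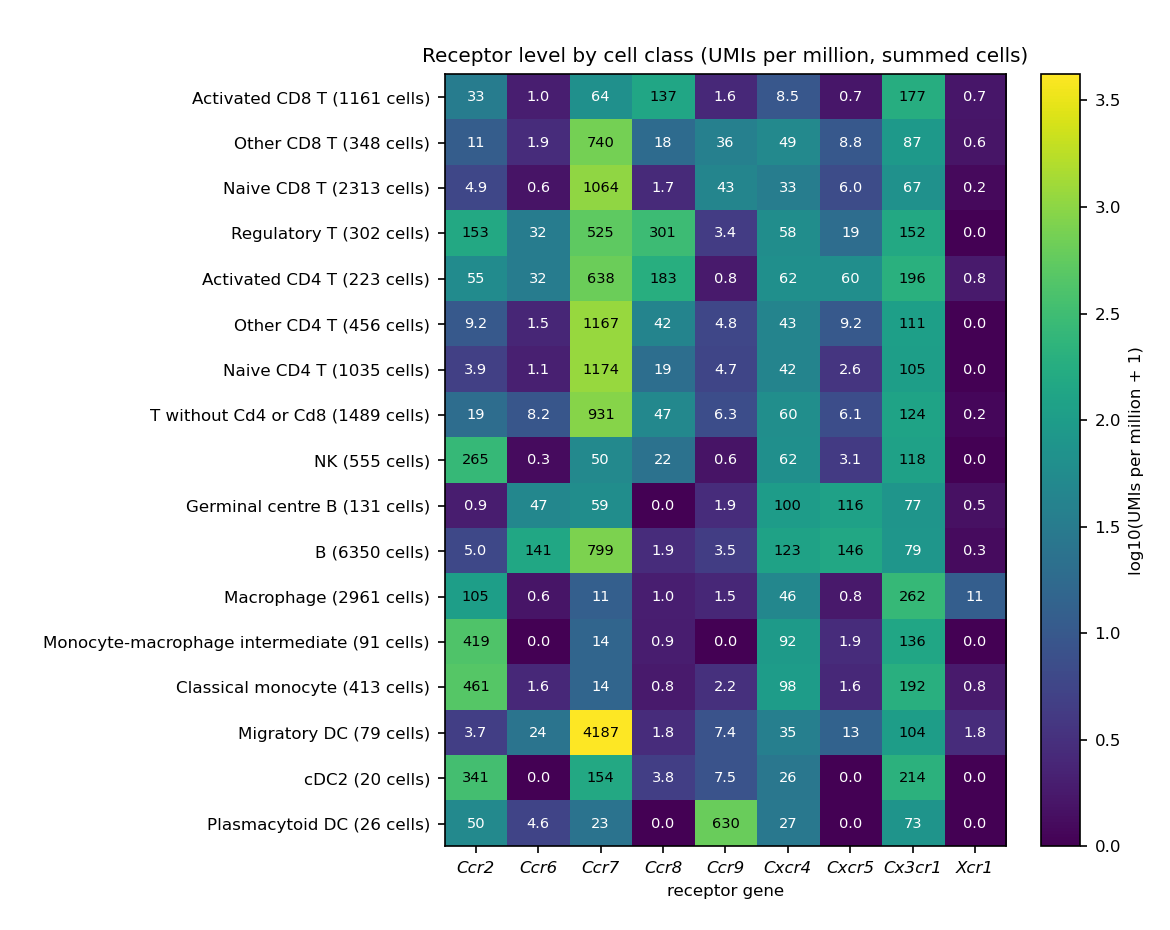
Level of each receptor gene (columns) in the 17 cell classes of at least 20 cells (rows), as UMIs per 1000000 over all cells of the class; numbers in the boxes are the levels and colour is log10 of the level plus 1. Ccr7 in migratory DCs (4187 CPM) is the brightest box, the Cx3cr1 column has no dark box, and the Xcr1 column is dark outside macrophages. The 16 type 1 conventional DCs, with 252 CPM of Xcr1, are not drawn.

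Ccr7, the receptor for entry into the lymph node's T cell zone, was high in resting lymphocytes. It read 1174 CPM in naive CD4 T cells (95% interval 1143 to 1206), 1064 CPM in naive CD8 T cells (1045 to 1082) and 799 CPM in B cells, and 11.4 CPM in macrophages. In naive CD8 T cells the 6 populations with at least 20 of them lay between 992 and 1259 CPM, and in naive CD4 T cells between 960 and 1534 CPM, and the ranges of both classes overlap. After each cell was thinned to 1500 UMIs, to take out depth, 71.9% of naive CD8 T cells and 70.7% of naive CD4 T cells held a Ccr7 UMI, against 2.66% of macrophages (unthinned 92.4%, 89.9% and 8.38%). Median depth before thinning was 4935 UMIs in naive CD8 T cells, 4491 in naive CD4 T cells and 15169 in macrophages.

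Cxcr5, the receptor that brings cells into the follicle, was read in B cells (146 CPM), germinal centre B cells (116 CPM) and activated CD4 T cells (60.1 CPM), in falling order, each beyond counting error of the next. The activated CD4 gate uses Icos, Pdcd1, Bcl6 and Il21 among its markers and so takes in follicular helper-like cells. In that class Cxcr5 was 105, 90.5 and 82.4 CPM in populations 2, 5 and 8, and 9.01 and 21.1 CPM in populations 3 and 9, from 1 and 3 UMIs. Populations 2, 5 and 8 were also the only ones with at least 20 germinal centre B cells (30, 60 and 39 cells), and populations 1, 3, 4, 7 and 9 held none. The sites of these populations are not known.

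Germinal centre B cells are B cells that mutate and select their antibody genes inside the follicle, and they were compared with the remaining B cells. They had less Ccr7, the receptor that pulls B cells toward the T cell zone, less Ccr6, the receptor for Ccl20, and Cxcr4 and Cxcr5 within 2-fold. Of 7 receptors with at least 50 UMIs in both classes together, 0 were at least 2-fold higher in germinal centre B cells and 3 were at least 2-fold lower, against 13.5% of all 10338 genes higher and 17.3% lower. The members' median log2 ratio was -0.91, and that of all genes -0.10.

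Ccr7 read 59.3 CPM in germinal centre B cells and 799 CPM in B cells, 13.5-fold lower (interval 11.3 to 16.2). It was 95.4, 43.5 and 62.0 CPM in germinal centre B cells of populations 2, 5 and 8, against 872, 850.4 and 835 CPM in B cells of the same populations, and the ranges lie far apart. Ccr6 was 46.6 CPM in germinal centre B cells and 141 CPM in B cells, 3.02-fold lower (2.48 to 3.73). By population, Ccr6 was 64.4, 18.7 and 73.9 CPM in germinal centre B cells and 150.5, 164 and 140.4 CPM in B cells of populations 2, 5 and 8. It was lower in all 3, but population 5 set the size: without it the ratio was 0.52, short of 2-fold, and the call was also lost with classes taken from clusters. Ccr2 made the third call on 2 UMIs in germinal centre B cells against 103 in B cells (5.32-fold lower, 1.44 to 44.5).

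Cxcr4, the Cxcl12 receptor that holds dividing germinal centre B cells in the dark zone, differed by less than 2-fold between these classes. It read 100.5, 100.5 and 100.3 CPM in germinal centre B cells of populations 2, 5 and 8, against 138, 122 and 113 CPM in B cells of the same populations. The pooled ratio was 0.81 (0.70 to 0.94). Cxcr5 gave 144, 117 and 95.01 CPM in germinal centre B cells and 170.5, 138 and 156 CPM in B cells, with a pooled ratio of 0.80 (0.69 to 0.91). By population, the interval of the ratio included 1 in all 3 for Cxcr4 and in 2 of 3 for Cxcr5.

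**Figure D2:**
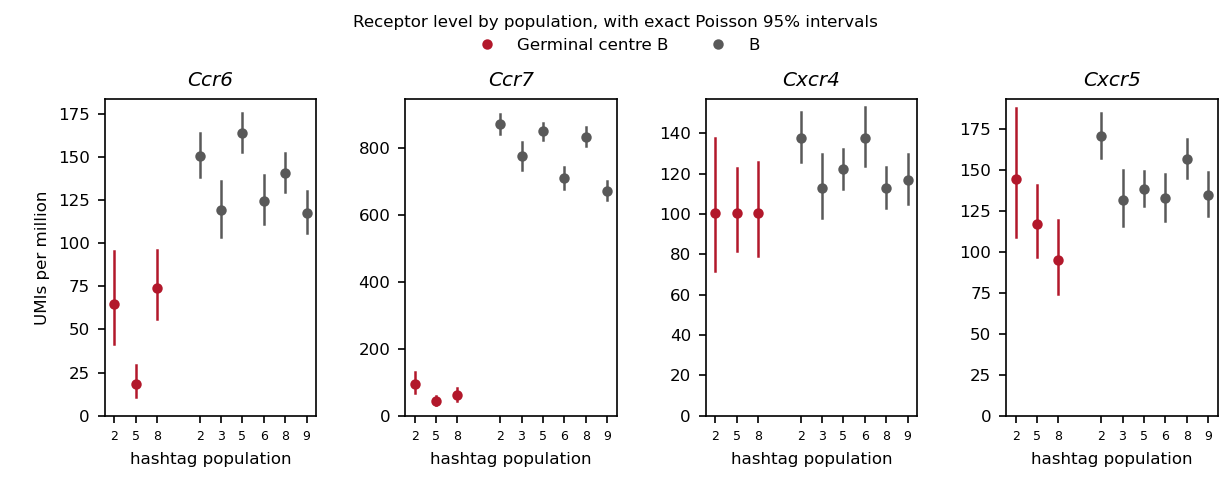
Levels of Ccr6, Ccr7, Cxcr4 and Cxcr5 (UMIs per 1000000, vertical axis from 0) in germinal centre B cells (red) and other B cells (grey) of each hashtag population with at least 20 such cells; lines are exact Poisson 95% intervals. Ccr7 and Ccr6 are lower in every germinal centre population, while Cxcr4 stands near 100 CPM in all 3 and overlaps the range of the B cells within its intervals.

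Other genes of lymphocyte traffic were read in the same comparison. Of the egress and lymph node entry list, all 4 genes compared were at least 2-fold lower in germinal centre B cells: Gpr183, an oxysterol receptor that places B cells at the follicle's edge (22.1 against 389 CPM), Klf2, a transcription factor that drives egress genes (109 against 1360 CPM), S1pr1, the egress receptor itself (20.7 against 83.0 CPM), and S1pr4. Of 6 measured other chemokine receptors, 2 were higher and 3 lower. The scavenger receptor Ackr4 was the furthest apart, with 21.6 CPM in germinal centre B cells from 46 UMIs and 0.29 CPM in B cells from 6 UMIs. Rgs1, which turns off G protein signals from chemokine receptors, was 895 CPM in germinal centre B cells and 81.6 CPM in B cells.

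Ccr6 outside B cells was low and patchy. Regulatory T cells (31.9 CPM), activated CD4 T cells (31.7 CPM) and migratory DCs (24.0 CPM, 13 UMIs) could not be told apart by their counts. In B cells Ccr6 ran between 117 and 164 CPM over the 6 populations with a B cell class, and 16.6% of thinned B cells held a Ccr6 UMI against 0.18% of NK cells (unthinned 29.1% and 0.18%, median depth 3014 and 5008 UMIs). Among T cells without a Cd4 or Cd8 UMI, Ccr6 lay in 32 of 1489 cells. Those 32 cells had 707 CPM of Il17a, the cytokine of type 17 T cells, against 3.60 CPM in the 1457 without a Ccr6 UMI. They also had 157 against 14.4 CPM of Ccr2 and 254 against 951 CPM of Ccr7. These 32 cells and the genes set beside them were chosen after values had been seen, and no gamma-delta T cell class could be formed because its markers are not in the table used here.

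Activated CD8 T cells, gated on checkpoint and effector genes, carried a different receptor set from naive CD8 T cells. Ccr8, a receptor for Ccl1 found on activated T cells, Ccr2 and Cx3cr1, the fractalkine receptor of effector T cells and macrophages, were higher. Ccr7, Ccr9, Cxcr4 and Cxcr5 were lower. All 7 receptors with enough UMIs were thus at least 2-fold apart, 3 higher and 4 lower, where 14.9% of 10234 genes were higher and 10% lower. The members' median log2 ratio was -1.97, and that of all genes 0.11. Nearly all activated CD8 T cells came from populations 1, 4 and 7 (621, 343 and 159 of 1161 cells), which held 13, 7 and 1 of the 2313 naive CD8 T cells, so that cell state and population cannot be told apart here. In activated CD8 T cells of populations 1, 4 and 7 the 15 myeloid markers summed to 6837, 4954 and 1885 CPM, with 13 or 14 detected and Chil3 at 0, against 1052 to 1332 CPM in naive CD8 T cells of the other 6. Ly6c2, which CD8 T cells also express, gave 4809, 3281 and 1007 CPM of those sums in activated CD8 T cells. In naive CD8 T cells of the other 6 populations it gave 660 to 915 CPM. The rest of the sum, without Ly6c2, was also higher in activated than in naive CD8 T cells. The 6 NK markers summed to 297, 172 and 137 CPM in activated and to 2.92 to 8.92 CPM in naive CD8 T cells, with Klra4 at 0 in the activated cells. Lyz2 was 39.9 CPM in activated and 44.1 CPM in naive CD8 T cells.

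Ccr8 had 1212 UMIs in activated CD8 T cells (137 CPM) and 21 in naive CD8 T cells (1.72 CPM), 79.4-fold more (51.7 to 129). It was 108, 217 and 103 CPM in activated CD8 T cells of populations 1, 4 and 7, highest in population 4. Ccr2 was 32.6 CPM in activated CD8 T cells and 4.93 CPM in naive CD8 T cells (6.62-fold higher, 5.00 to 8.90), and stood at 30.8, 48.3 and 13.2 CPM in populations 1, 4 and 7. Cx3cr1 was 177 CPM in activated and 66.8 CPM in naive CD8 T cells (2.65-fold higher, 2.43 to 2.88). It read 172, 204 and 164 CPM in activated cells of the same 3 populations, and 54.1 to 74.4 CPM in naive cells of the 6 populations that held them, so these ranges do not overlap. After thinning, 18.1% of activated CD8 T cells held a Ccr8 UMI, against 0.27% of B cells, a class that should lack it (unthinned 39.5% and 0.52%, median depth 6805 and 3014 UMIs).

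Ccr7 was 63.8 CPM in activated and 1064 CPM in naive CD8 T cells, 16.7-fold lower (15.3 to 18.2). Cxcr4 was 8.47 CPM in activated and 33.1 CPM in naive CD8 T cells, 3.91-fold lower (3.05 to 5.07). The activated CD8 class had the lowest Cxcr4 of the 17 classes, at 6.74, 5.89 and 5.92 CPM in populations 1, 4 and 7, the pooled value also taking in the few cells of other populations. Cxcr5 rested on 6 UMIs in activated and 73 in naive CD8 T cells (8.85-fold lower, 3.87 to 24.9), and its ratio moved between 0.19 without population 1 and 0.073 without population 8.

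Ccr9, the receptor for Ccl25 that guides cells to thymus and small intestine, read higher in naive CD8 than in naive CD4 T cells. It was 43.0 CPM in naive CD8 T cells (524 UMIs) and 4.72 CPM in naive CD4 T cells (22 UMIs). By population, naive CD8 T cells ran between 28.6 and 52.7 CPM. Activated CD8 T cells had 14 UMIs (1.58 CPM), 27.2-fold lower than naive CD8 T cells (16.1 to 50.1), with a ratio of 0.021 without population 1. Its highest level was in plasmacytoid DCs, the interferon-making DCs, at 630.3 CPM from 138 UMIs in 26 cells (interval 530 to 745). That class had no population of 20 cells, and its level was 455 CPM without population 1 and 755 CPM without population 5. Ccr9 shares 269 exon bases with the noncoding gene Gm17200 on the same strand, and reads there cannot be told apart.

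Other genes of the 5 lists were read in the same CD8 comparison. Of the 14 other chemokine receptors, 5 had enough UMIs and all 5 were higher in activated than in naive CD8 T cells, among them Cxcr6, a receptor of tissue-resident T cells (815 against 28.2 CPM), and Cxcr3 (87.4 against 22.7 CPM). S1pr1 was 5.53 against 215 CPM and Klf2 68.5 against 1173 CPM, both lower. Ccl1, the ligand of Ccr8, had 533 UMIs in activated and 2 in naive CD8 T cells, and activated CD8 T cells held 533 of its 628 UMIs in the whole table. Rgs16, another brake on G protein signals, was 1107 against 7.22 CPM. Of the 8 genes of the migration machinery 1 was at least 2-fold higher and 0 lower.

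Regulatory T cells, gated on Foxp3, had more Ccr2, Ccr6, Ccr8 and Cxcr5 and less Ccr7 than naive CD4 T cells. Of 7 measured receptors 4 were at least 2-fold higher and 1 lower, where 13.8% of 8479 genes were higher and 4.3% lower. The members' median log2 ratio was 2.86, and that of all genes 0.22. Pooled Ccr8 was 301 CPM in regulatory and 19.3 CPM in naive CD4 T cells (15.6-fold higher, 12.5 to 19.6), and pooled Ccr2 153 and 3.86 CPM (39.6-fold higher, 24.6 to 67.7). Cxcr5 made the call on exactly 50 UMIs, 38 in regulatory and 12 in naive CD4 T cells (7.24-fold higher, 3.70 to 15.2), its ratio was 15.5 without population 6, and it was lost to the UMI minimum under the stricter gate and when any of 8 of the 9 populations was left out.

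Populations differed widely within the regulatory T cell class. Ccr2 was 373 and 539 CPM in populations 1 and 4, and 31.1, 34.2, 102, 54.7, 51.6 and 21.4 CPM in populations 2, 3, 5, 6, 8 and 9 (population 7 had 16 such cells, under the limit of 20). Ccr8 was 562 and 942 CPM in populations 1 and 4, and 231, 197, 223, 219, 101 and 167 CPM in the other 6. Ccr7 ran the other way, at 72.0 and 198 CPM in populations 1 and 4 against 617, 778, 442, 520, 488 and 1147 CPM in populations 2, 3, 5, 6, 8 and 9. For all 3 receptors the intervals of populations 1 and 4 do not reach the values of the other 6. Over the 8 populations the median Ccr2 level was 53.1 CPM, and leaving out population 1, 4 or 7 left 229, 241 or 229 of the 312 Ccr2 UMIs.

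**Figure D3:**
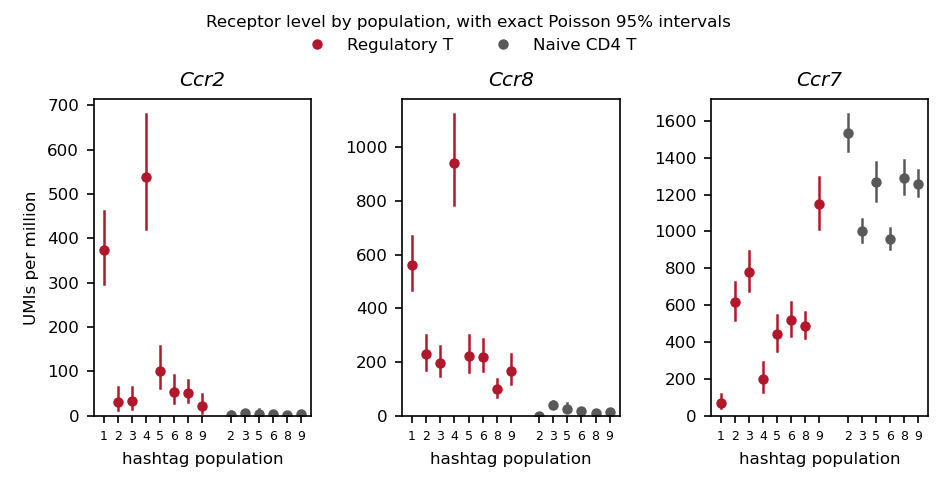
Levels of Ccr2, Ccr8 and Ccr7 (UMIs per 1000000, vertical axis from 0) in regulatory T cells (red) and naive CD4 T cells (grey) of each hashtag population with at least 20 such cells; lines are exact Poisson 95% intervals. Populations 1 and 4 stand apart among regulatory T cells in all 3 panels, with high Ccr2 and Ccr8 and low Ccr7.

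Within populations 2, 3, 5, 6, 8 and 9, which held at least 20 cells of both classes, Ccr8 was higher in regulatory than in naive CD4 T cells in all 6, with intervals of the ratio above 1. The interval lay above 1 in 5 of 6 populations for Ccr2 and Ccr6 and in 4 of 6 for Cxcr5, and below 1 in 5 of 6 for Ccr7, whose ratios ran between 0.35 and 0.91. The intervals that include 1 were those of Ccr2, Ccr7 and Cxcr5 in population 9, Ccr6 in population 5 and Cxcr5 in population 3, of which Ccr6 in population 5 and Cxcr5 in population 9 rested on 1 UMI in each class. The Ccr2 ratio ran between 4.19 and 30.6, with a median of 16.4. These ratios rested on 1 to 5 Ccr2 UMIs per population in naive CD4 T cells. The highest, in population 8, rested on 1 such UMI, with an interval of 4.90 to 1269. Of 4 egress genes 3 were at least 2-fold lower in regulatory than in naive CD4 T cells and 0 higher. S1pr1 had 0 UMIs in regulatory T cells of populations 1 and 4, which allows up to 13.5 and 22.8 CPM, against 103 to 178 CPM in the other 6. Klf2 was 67.5 and 37.99 CPM in populations 1 and 4 and 335 to 710.1 CPM in the other 6. Of the other chemokine receptors 5 were measured, and all 5 were at least 2-fold higher in regulatory than in naive CD4 T cells. Cxcr3, a receptor of type 1 T cells, was 118 against 1.72 CPM, and Ccr4 was 46.6 against 0.43 CPM, from 95 and 2 UMIs.

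The 15 myeloid, macrophage and monocyte markers summed to 724 and 851 CPM in regulatory T cells of populations 1 and 4 and to 137 to 462 CPM in the other 6, with 9 to 11 of the 15 detected and Chil3, Hp and Vcan at 0 in all 8. Plac8, which activated lymphocytes also express, gave 409 and 501 CPM of those sums. Lyz2, the most abundant of these genes in monocytes (12609 CPM), stood at 36.0 and 37.99 CPM in populations 1 and 4, inside the range of the other 6 (15.5 to 76.2 CPM). C1qa was also inside it, at 40.5 and 45.6 CPM against 17.1 to 60.9 CPM. Fcer1g was 54.0 and 122 CPM against 7.74 to 96.5 CPM, above the range in population 4. Ly6c2 was 36.0 and 15.2 CPM against 4.28 to 31.1 CPM, above the range in population 1. Regulatory T cells held 4.22 Ccr2 UMIs per Lyz2 UMI, against 0.037 in classical monocytes and 0.022 in macrophages. The 6 NK markers summed to 0 CPM in both populations.

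Activated CD4 T cells had more Ccr2, Ccr8 and Cxcr5 than naive CD4 T cells, and Ccr7 short of 2-fold lower. Ccr6 had under 50 UMIs in both classes together and got no call. Of 6 measured receptors 3 were at least 2-fold higher than in naive CD4 T cells and 0 lower, where 11.7% of 8125 genes were higher and 3.31% lower. The members' median log2 ratio was 2.07, and that of all genes 0.23. Cxcr5 was 60.1 CPM in activated and 2.58 CPM in naive CD4 T cells (23.3-fold higher, 12.6 to 47.2, and 56.0-fold without population 6), pooled Ccr2 55.2 and 3.86 CPM (14.3-fold, 8.40 to 25.5), and Ccr8 183 and 19.3 CPM (9.50-fold, 7.41 to 12.3). Ccr7 was 638 CPM in activated and 1174 CPM in naive CD4 T cells, a ratio of 0.54 (0.50 to 0.59) that falls short of 2-fold. It passed 2-fold without population 1, without population 9, with classes from clusters, or with mitochondrial and ribosomal genes left out of the total. Of the 68 Ccr2 UMIs of activated CD4 T cells, 17 and 24 came from populations 1 and 4, from 15 and 18 cells. In the 5 populations with at least 20 such cells the class read 18.1 to 28.1 CPM of Ccr2, and the median ratio over naive CD4 T cells was 5.75. Those ratios rested on 1 to 5 Ccr2 UMIs per population in naive CD4 T cells. Within populations 2, 3, 5, 8 and 9 the interval of the ratio lay above 1 in all 5 for Ccr8 and in 4 of 5 for Ccr2, Ccr6 and Cxcr5, and below 1 in 4 of 5 for Ccr7. The exceptions, with intervals that include 1, were Ccr2 and Cxcr5 in population 3, and Ccr6 and Ccr7 in population 9, where the Ccr7 ratio was 0.998.

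Among populations with at least 20 activated CD4 T cells, Ccr8 was highest in the 2 where Cxcr5 was lowest. Ccr8 was 261 and 232 CPM in populations 3 and 9, where Cxcr5 had 1 and 3 UMIs, and 160, 94.8 and 86.8 CPM in populations 2, 5 and 8, where Cxcr5 had 29, 21 and 19 UMIs. Populations 1, 4, 6 and 7, with 15, 18, 11 and 12 such cells, stand outside this ranking. Without population 1, 188 of the 226 Ccr8 UMIs and all 74 Cxcr5 UMIs of the class were left, and without population 4, 202 and 73. Without population 6, 214 and 74 were left, and without population 7, 222 and 74. In single cells thinned to 1500 UMIs, 1 of 220 activated CD4 T cells held both Ccr8 and Cxcr5, where the product of the 2 shares gives 3.36 cells. In cells thinned to 5000 UMIs, 3 of 94 did, where it gives 6.27. The populations that differ in Ccr8 and Cxcr5 are part of these counts, and pairs within a population were not counted.

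T cells without a Cd4 or Cd8 UMI gave all 9 populations a value. Ccr7 was 89.1, 37.2 and 50.03 CPM in populations 1, 4 and 7, and 1328, 909, 1072, 999, 1135 and 1053 CPM in populations 2, 3, 5, 6, 8 and 9. Cxcr4 ran the other way, with 120, 125 and 143 CPM in populations 1, 4 and 7 and 36.1 to 61.0 CPM in the other 6, and so did Ccr2, with 41.1, 50.7 and 78.6 CPM against 5.95 to 20.0 CPM. The NK markers summed to 161, 203 and 293 CPM in populations 1, 4 and 7 and to 6.29 to 18.5 CPM in the others, and the 15 myeloid markers to 7693, 6387 and 4788 CPM against 478 to 716 CPM, with 10 to 14 of the 15 detected and Vcan at 0 in all 9 populations. Ly6c2 alone was 747 CPM over the whole class. Their part in the Cxcr4 and Ccr2 levels was not tested.

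Macrophages had less Ccr2, the receptor with which monocytes enter tissue, and less Cxcr4 than classical monocytes, and more Xcr1. Of 7 measured receptors 1, Xcr1, was at least 2-fold higher in macrophages and 2, Ccr2 and Cxcr4, were lower, where 14% of 11321 genes were higher and 5.94% lower. The members' median log2 ratio was -0.31, and that of all genes 0.19. Ccr2 was 116, 78.4 and 117 CPM in macrophages of populations 1, 4 and 7, against 400.2, 404 and 507 CPM in classical monocytes of the same populations. The pooled levels were 105 and 461 CPM, 4.39-fold lower in macrophages (4.15 to 4.64), and the ranges do not overlap. The 91 cells between both gates, with markers of monocytes and macrophages, read 419 CPM, which could not be told apart from classical monocytes.

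Cxcr4 was 44.5, 52.1 and 43.2 CPM in macrophages and 79.5, 90.3 and 106 CPM in classical monocytes of populations 1, 4 and 7. It was lower in macrophages in each of the 3, 2.12-fold over all cells (1.89 to 2.37). The ratio was 0.57 without population 7, short of 2-fold, and the call was also lost with classes from clusters. Cx3cr1, the fractalkine receptor, was 220, 242 and 287 CPM in macrophages and 162, 157 and 221 CPM in classical monocytes. It was higher in macrophages in each population, by 1.298-fold to 1.54-fold.

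NK cells had a pooled Ccr2 level of 265 CPM (249 to 283), with 249, 284 and 235 CPM in populations 1, 4 and 7. Pooled over all populations regulatory T cells were lower, at 153 CPM, but in populations 1 and 4, where both classes had at least 20 cells, regulatory T cells were higher, at 373 and 539 CPM. Thinned NK cells held a Ccr2 UMI in 30.6% of cells, classical monocytes in 42.4% and B cells, which should lack it, in 0.80% (unthinned 59.3%, 80.4% and 1.51%, median depth 5008, 8517 and 3014 UMIs). NK cells carried 6.85 Ccr2 UMIs per Lyz2 UMI, against 0.037 in classical monocytes.

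Macrophages also read more of several ligand genes. Of 7 measured ligands, 4 were at least 2-fold higher in macrophages than in classical monocytes and 0 lower, with a median log2 ratio of 1.96. Ccl7 and Ccl12, ligands of Ccr2, were 1178 against 168 CPM and 672 against 173 CPM, and Ccl8 was 90.7 against 0.82 CPM. Ccl2, the main ligand of Ccr2, was less than 2-fold apart, at 1203 CPM in macrophages and 809.7 CPM in classical monocytes, and is named here after its value was seen.

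**Figure D4:**
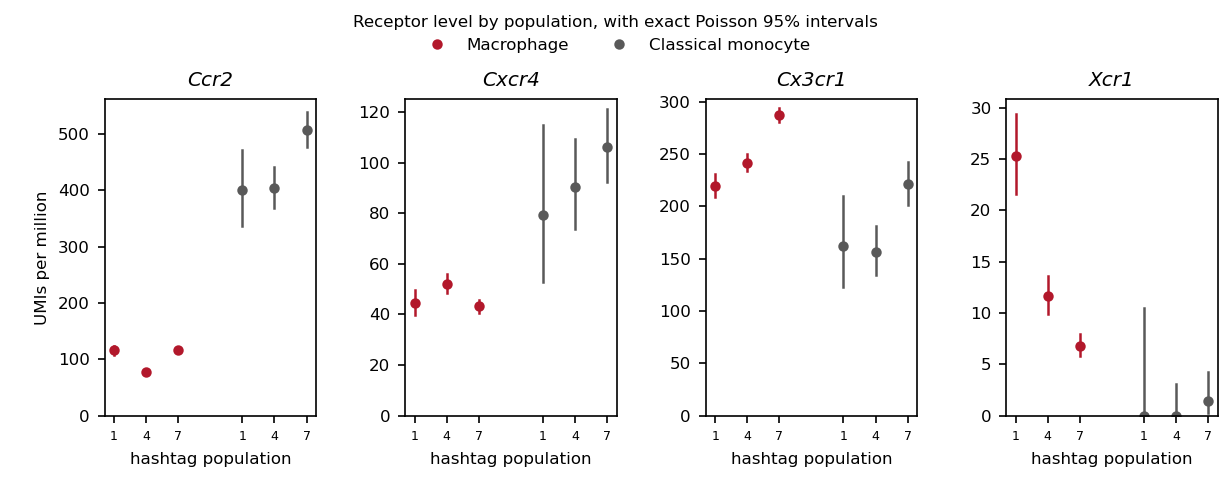
Levels of Ccr2, Cxcr4, Cx3cr1 and Xcr1 (UMIs per 1000000, vertical axis from 0) in macrophages (red) and classical monocytes (grey) of hashtag populations 1, 4 and 7, which held at least 20 of both; lines are exact Poisson 95% intervals. Ccr2 and Cxcr4 are lower and Cx3cr1 and Xcr1 higher in macrophages in each population.

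Xcr1, the receptor for Xcl1 that marks cross-presenting type 1 conventional DCs (cDC1s), was found mostly in the macrophage class. Macrophages held 500 of its 591 UMIs (11.0 CPM, 10.1 to 12.0) and classical monocytes 3 UMIs, a ratio of 13.5 (4.59 to 65.6) that was 8.92 without population 4. Without population 7 there were 335 UMIs in macrophages and 0 in classical monocytes. By CPM the 16 cells gated as cDC1 stood far higher, at 252 CPM (191 to 327), but they are fewer than the limit of 20 and gave 57 UMIs. Xcr1 in macrophages was 25.3, 11.7 and 6.82 CPM in populations 1, 4 and 7, with intervals that do not overlap.

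Among macrophages the Xcr1 UMIs were concentrated in few cells. Of 2961 macrophages 227 (7.67%, 6.73% to 8.68%) held an Xcr1 UMI, 63 held 3 or more, and the highest cell held 14, with a variance 3.86 times the mean. The share was 11.5%, 8.03% and 6.33% in populations 1, 4 and 7. After thinning 1.26% of macrophages held an Xcr1 UMI against 0.02% of B cells (unthinned 7.67% and 0.09%). The 227 cells had 5813 CPM of C1qa against 5192 CPM in the 2734 others, and C1qb, C1qc and Adgre1 were also higher in them. Other myeloid genes were lower in them: Lyz2 (3451 against 4948 CPM), Apoe (2808 against 4983 CPM), Mrc1 (34.3 against 49.7 CPM) and Csf1r (544 against 626 CPM). Flt3 and Snx22, cDC genes at 119 and 70.8 CPM in the cDC1 class, read 0.22 and 0.66 CPM in them, against 0.66 and 0.66 CPM in the others. Clec9a, another cDC1 gene, was 43.4 against 20.6 CPM. Of the other cDC1 markers, Cadm1 was also higher in them (168 against 132 CPM). Wdfy4 (35.6 against 40.2 CPM) and Tlr3 (11.7 against 13.5 CPM) were read in both, with intervals that overlap. Macrophages without a Flt3, Snx22 or Clec9a UMI had 7.15 CPM of Xcr1, a setting chosen after seeing the data.

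Macrophages with an Xcr1 UMI also differed in other receptors. Ccr2 was 42.3 CPM in them and 112 CPM in those without, Cxcr4 25.7 and 48.7 CPM, and Cx3cr1 285 and 259 CPM. Median depth was 19537 and 14622.5 UMIs. In cells thinned to 1500 UMIs, 4 of 2933 macrophages held both Ccr2 and Xcr1, where the product of the shares gives 4.60 cells, and in cells thinned to 5000 UMIs 10 of 2635 did, where it gives 26.8. The split by Xcr1 was chosen after values had been seen and is a description.

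Migratory DCs, which carry antigen from tissue to lymph node, had the highest Ccr7 of the table, at 4187 CPM (4016 to 4363), and 93.4% of them held a Ccr7 UMI after thinning. Set against the 20 cells of the cDC2 class, 3 receptors were measured, Ccr7 higher and Ccr2 and Cx3cr1 lower, where 21.6% of 2618 genes were higher and 16.5% lower. The members' median log2 ratio was -1.05, and that of all genes 0.011. The monocyte markers Ly6c2 and Chil3 read 2015 and 124 CPM in cDC2s, and Lyz2 1891 CPM, against 198, 1.85 and 68.4 CPM in migratory DCs. Cd209a, a cDC2 marker, read 1077 CPM in cDC2s and 11.2 CPM in classical monocytes. Populations 1, 4 and 7 gave 4, 4 and 9 of the 20 cDC2s, and 7, 5 and 14 of the 79 migratory DCs. The part of monocyte RNA or population in these ratios was not tested. Ccr7 was 154 CPM in cDC2s, and 27.2-fold higher in migratory DCs (20.0 to 38.03). Of the 41 Ccr7 UMIs of cDC2s, 1 was left without population 1 (ratio 863, 155 to 34098), and the ratio was 14.7 without population 7. With classes from clusters the Ccr7 level of migratory DCs was 1830 CPM. Ccr2 had 2 UMIs in migratory DCs and 91 in cDC2s (92.4-fold lower, 24.8 to 774), with a ratio of 0.0057 from 1 UMI without population 2, and too few UMIs for a call without population 7. Cx3cr1 was 2.07-fold lower (1.40 to 3.04) and fell short of 2-fold without population 5, 6, 7, 8 or 9, with ratios between 0.50 and 0.56.

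Cx3cr1 was read in all 17 classes, the resting lymphocytes included. Its lowest level among the 17 classes was 66.8 CPM in naive CD8 T cells (62.3 to 71.6) and its highest 262 CPM in macrophages, which the counts could not tell apart from cDC2s (214 CPM). Naive CD8 T cells and B cells, resting lymphocytes in which the receptor is not usually found, held 54.1 to 74.4 CPM and 69.1 to 101 CPM in the 6 populations that had them. After thinning 30.3% of macrophages, 11.4% of B cells and 8.89% of naive CD8 T cells held a Cx3cr1 UMI (unthinned 82.5%, 21.3% and 26.03%), with median depths of 15169, 3014 and 4935 UMIs.

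The Cx3cr1 reads of lymphocytes were set beside C1qa. B cells held 1.32 Cx3cr1 UMIs per C1qa UMI, naive CD8 T cells 2.03, activated CD8 T cells 6.61 and germinal centre B cells 9.11, against 0.050 in macrophages. In GENCODE vM21 the Cx3cr1 gene spans 168264 bases, with 3 transcripts whose spans run between 19614 and 166668 bases. The coding genes Gorasp1, Csrnp1 and Xirp1 lie within it on the same strand and share 0 exon bases with it. Counting by strand is not stated, and on the opposite strand 78 exon bases are shared with Gm33858. The sources used do not state whether intron reads were counted, and their part in the Cx3cr1 level was not tested.

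The 6 class comparisons are drawn side by side in the plot of receptor ratios.

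**Figure D5:**
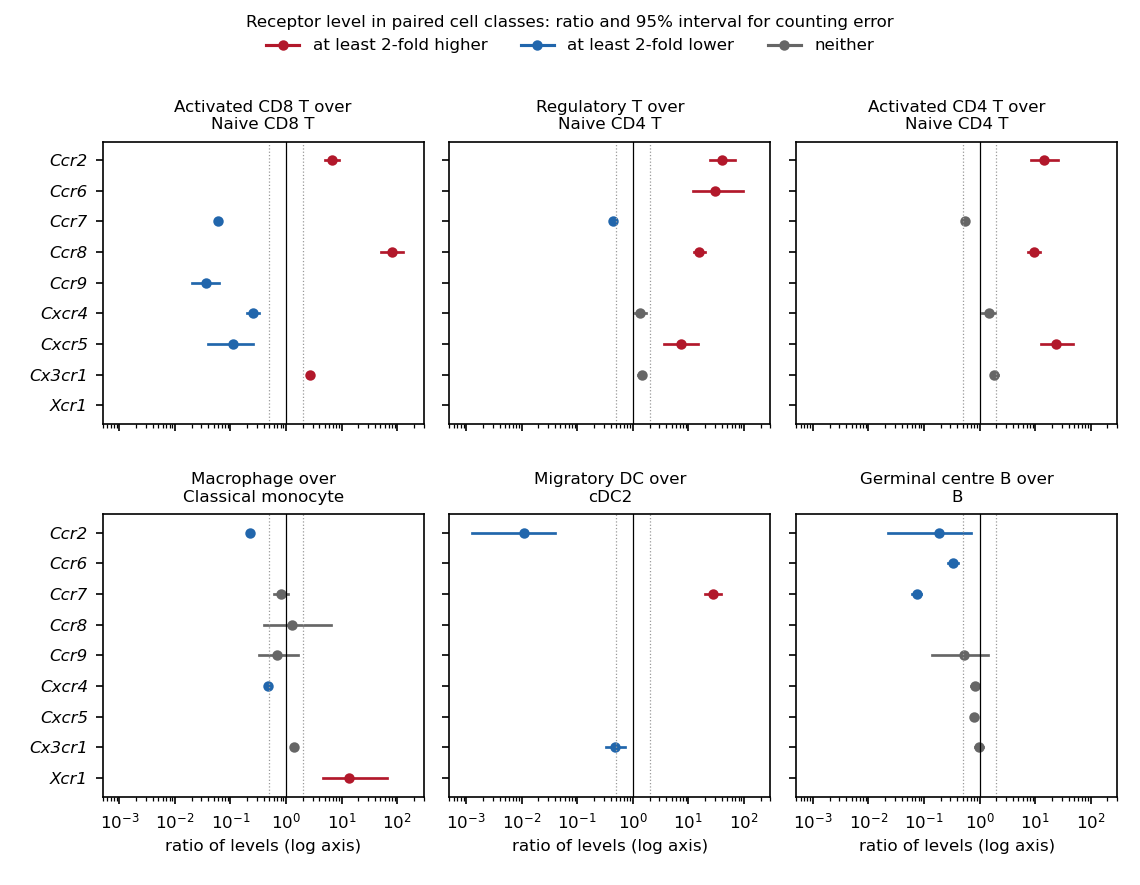
Ratio of each receptor's level in the first class over the second (horizontal, log10 axis) for the 6 class comparisons; lines are 95% counting intervals, red marks at least 2-fold higher, blue at least 2-fold lower, grey neither, and receptors under 50 UMIs are not drawn. Ccr7 lies below 1 in the 3 T cell comparisons and in germinal centre B cells and above 1 in migratory DCs, while Ccr2 lies above 1 in the 3 T cell comparisons and below 1 in the other 3.

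In B cells 5 pairs of receptors were counted. Of 6015 B cells thinned to 1500 UMIs, 191 held both Ccr6 and Cxcr5, where the product of the shares gives 190.4, and 196 held both Cxcr4 and Cxcr5 (197 by the product). Ccr7 met Cxcr4 in 646 cells (611) and Cxcr5 in 708 (682), and Ccr6 met Cxcr4 in 158 (171). In the 448 B cells with enough UMIs for thinning to 5000, 49.7% of the cells with a Ccr7 UMI held Cxcr5, against 28.3% of those without. In regulatory T cells the counts departed from the products, with 2 of 298 cells holding both Ccr2 and Ccr7 (17.8 by the product), 14 holding both Ccr7 and Ccr8 (27.7) and 21 holding both Ccr2 and Ccr8 (14.1). In cells thinned to 5000 UMIs these became 9 of 137 (20.9), 21 (32.2) and 28 (18.9). The populations with high Ccr2 and Ccr8 and low Ccr7 are part of these counts, and pairs within a population were not counted.

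Genes with the most similar profile over the 15 classes of at least 50 cells were sought by Pearson's r of log2(CPM + 5) among 9034 genes, as a description, since the classes share 1 pool. Ccr6 and Cxcr5 were close to each other (r = 0.92) and both to Adck3 (0.92 and 0.95). Ccr7 was closest to Ccdc94 (0.97), Ccr8 to Crmp1 (0.95), Ccr2 to Mlkl (0.93), Ccr9 to Slc6a19 (0.93) and Xcr1 to Prune2 (0.95). No gene reached r = 0.9 with Cxcr4 or Cx3cr1.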

How the data were processed

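Per the labels, live CD45+ cells of 9 samples were sorted, tagged, pooled and sequenced as 4 gene expression libraries and 1 hashtag library. Values are raw counts (UMIs) that the authors deposited per gene and cell; per the submitters' processing notes Cell Ranger 8.0.1 was used, with genome mm10-1.2.0. Cells under 500 UMIs or 200 genes, or over 20% mitochondrial, were removed, as the authors' stated filter says (93 of 21624 barcodes); no barcode was repeated.

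A hashtag was called where its count was at least 3 times the next (21273 cells, 258 without). Doublets were otherwise handled by the lineage lead of the gates, and Scrublet marked 184 cells (0.855%), left out in an alternative. Classes came from sums of marker UMIs, at least 3 for a lineage and 3 times the next lineage. Thresholds were set after marker counts had been seen and without the 9 receptors. The 3510 cells without a class (16.3%) were left out of classes.

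Counts were summed per class and divided by all UMIs of the class. Intervals at 95% were exact Poisson for levels, Clopper-Pearson for shares and conditional binomial for ratios, and a count of 0 allows up to 3 counts. A receptor was called between classes at a ratio of at least 2 or at most 0.5, an interval that leaves out 1, and at least 50 UMIs in both classes together. Named genes were the 9 members, genes of 5 lists past 2-fold with the largest and smallest ratios, up to 6 per comparison, and genes with r of at least 0.9. Members and lists were chosen with earlier results of these data known. The fold calls and ratio intervals were tested on simulated Poisson counts, for regulatory T over naive CD4 T cells and macrophages over classical monocytes. The other steps were not tested in this way. Python 3.11.15, numpy 2.4.6, scipy 1.17.1, pandas 2.3.3 and scanpy 1.11.5 were used. Alternatives were a stricter gate, Leiden clusters, a hashtag lead of 5, other denominators, fold and depth limits, and leaving out each population. Results for some genes are not reported here.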

Additional observations from a re-analysis of the deposited data

How the results depend on the processing

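No paired analysis was possible because no test was run; classes of the same population were set side by side instead. With mitochondrial and ribosomal genes left out of the total, the top levels were 512 CPM for Ccr2, 189 for Ccr6, 4851 for Ccr7, 376 for Ccr8, 757 for Ccr9, 165 for Cxcr4, 195 for Cxcr5, 298 for Cx3cr1 and 12.5 for Xcr1. With classes from clusters they were 374 for Ccr2, 1830 for Ccr7, 379 for Ccr8, 277 for Cx3cr1 and 13.2 for Xcr1, and under the stricter gate 4564 for Ccr7. As a median over populations they were 404 for Ccr2, 133 for Ccr6, 221 for Ccr8, 136 for Cxcr5 and 242 for Cx3cr1. Xcr1 was 7.15 CPM in macrophages without a Flt3, Snx22 or Clec9a UMI, a setting chosen after seeing the data. Leaving out 1 population at a time gave 402 to 488 CPM for Ccr2 in classical monocytes, 134 to 145 for Ccr6 and 140.4 to 148 for Cxcr5 in B cells, 3951 to 4374 for Ccr7 in migratory DCs, 256 to 348 for Ccr8 in regulatory T cells (269 without population 1), 455 to 755 for Ccr9 in plasmacytoid DCs, 233 to 271 for Cx3cr1 (269.4 without population 1) and 8.51 to 15.8 for Xcr1 in macrophages.

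The number of receptors at least 2-fold lower ran from 0 to 1 in activated CD4 T cells, 1 to 2 in macrophages and 0 to 2 in migratory DCs when 1 population was left out. At a fold limit of 3 it was 0 in regulatory T cells, 1 in macrophages and 1 in migratory DCs. It was 1 in activated CD4 T cells with clusters, at a fold limit of 1.5 or with the other total, and 1 in macrophages with clusters. In germinal centre B cells it was 2, in place of 3, with clusters or without population 5, and the number higher in activated CD8 T cells was 2, in place of 3, at a fold limit of 3. The cause of these shifts was not tested. No cDC2 cluster formed and the stricter gate left no value for migratory DCs over cDC2s. The other alternatives moved these levels by less than the counting interval and these counts by less than 1.5 times. Among the other values recomputed, 157 stayed within these limits and 65 did not. Depth limits classes under 20 cells most, and receptors with under 50 UMIs in a pair of classes were given no call.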
